A study of Mus musculus with 7 samples.

Results

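A set of 194 abundant long noncoding RNAs of mouse kidney is described here in animals lacking 2 heparan sulfate 3-O-sulfotransferases and in wild-type animals. They are the genes that the deposited table of normalised expression lists with the biotype lncRNA and with a mean of at least 5 CPM (read counts scaled to a common library size, here with TMM factors, the trimmed mean of M-values) over the 7 libraries. The choice left out 4 further long noncoding RNAs by name: Gm15564, which averaged 610.5 CPM, 2610035D17Rik with 18.7 CPM, Dnm3os with 12.2 CPM, and H19, which at 0.151 CPM was below the minimum in any case. The 194 genes were 194 of 1669 long noncoding RNAs, and of 18797 genes, in that table, and 1472 long noncoding RNAs were below the minimum. Just inside it were Gm42397 with 5.04 CPM, Snhg16 with 5.06 CPM and Sgms1os1 with 5.08 CPM, and just outside it were Etohd2 with 4.89 CPM, Gm35585 with 4.84 CPM and Hoxb3os with 4.80 CPM. The members were thus chosen by their mean CPM over both genotypes, so their abundance is a description. The rule compares no genotypes, although it was set with earlier results of these data known. An RNA near the minimum can still pass it through the group where it is high. Gm4208 passed with a mean of 3.32 CPM in DKO and 11.9 CPM in WT, and Erdr1y with 17.2 CPM in DKO and 3.28 CPM in WT. Counts of members that differ between the groups include such RNAs.

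The libraries were made from whole kidneys of male mice. The DKO group was 4 animals with a double knockout of Hs3st3a1 and Hs3st3b1, numbered 1 to 4, and the WT group was 3 wild-type animals, numbered 1, 2 and 4. Each library carries its own animal number in the labels. Strain, age and the design of the alleles are not stated in the labels, which also name no Cre driver or treatment.

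Long noncoding RNAs are transcripts with no long conserved reading frame, and they differ widely in where they act. Malat1 and Neat1 stay in the nucleus: Malat1 gathers in nuclear speckles, which store splicing factors, and the long form of Neat1 is the scaffold of paraspeckles, bodies that hold RNA-binding proteins such as NONO and SFPQ. The small nucleolar RNA (snoRNA) host genes, named Snhg, and Gas5 carry in their introns the small RNAs that guide chemical modification of other RNAs. Their spliced transcripts are exported, and many begin with a 5′ terminal oligopyrimidine (TOP) tract as ribosomal protein mRNAs do, and are degraded when translated. A further class, including Airn and Kcnq1ot1, is transcribed from 1 parental allele and silences neighbouring genes on it.

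The start of a host transcript is where the TOP tract lies, so the annotated starts of some hosts are shown with Malat1 beside them. Each sequence is 40 bases from RefSeq on GRCm38.p6, with 20 bases before the annotated start and 20 from it, written in the direction of transcription. Capitals mark a run that begins with C and goes on for at least 4 further C or T bases, starting within 10 bases of the annotated start. The windows are chr1:161035146-161035185 on the plus strand for the second annotated start of Gas5, chr3:123508317-123508356 on the minus strand for Snhg8, chr15:32244643-32244682 on the minus strand for Snhg18, chr11:116671640-116671679 on the plus strand for Snhg16, chr19:8723467-8723506 on the plus strand for Snhg1 and chr19:5802653-5802692 on the minus strand for Malat1.
Gas5: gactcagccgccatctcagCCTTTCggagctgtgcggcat
Snhg8: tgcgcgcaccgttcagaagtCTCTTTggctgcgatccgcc
Snhg18: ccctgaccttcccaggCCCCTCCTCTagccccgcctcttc
Snhg16: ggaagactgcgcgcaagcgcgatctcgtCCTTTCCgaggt
Snhg1: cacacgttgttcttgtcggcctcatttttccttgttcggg
Malat1: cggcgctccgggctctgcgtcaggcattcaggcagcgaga

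The base at the annotated start was itself a C followed by at least 4 further C or T bases in 2 of the 9 start windows of the hosts, those of Gas5 and Snhg8, against 2.51% of all 32851 start windows of the table. A run beginning within 10 bases of the start was present in 4 of the 9 host windows, against 30.7% of all windows. These 4 are shown above, but of the host windows without a run only that of Snhg1 is. Those of Snhg20, of Snhg17 and of the first start of Gas5 are not shown. In Snhg18 such a run begins before the start and extends past it, and in Snhg16 it begins after the start. The search read the transcribed strand only, 7 of the 8 hosts had a window, and Neat1 and Snhg6 had none. A match describes the letters near an annotated start and is not evidence that transcription begins there.

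Total counts were between 18330929 and 24259400 per library. Counts of Hs3st3a1 were 1, 0, 0 and 3 in DKO 1 to 4, against 29, 13 and 12 in WT 1, 2 and 4, while Hs3st3b1 had 33, 106, 65 and 108 counts in the DKO libraries, against 56, 90 and 112 in the WT libraries. The labels do not say which part of each gene was deleted, so the counts of Hs3st3b1 check nothing. A neomycin resistance sequence had between 73 and 125 counts in the DKO libraries and 0 in the WT libraries. All 8 kidney markers had counts in every library. Markers of blood and immune cells were also present, with no marker of the 4 lists at 0 in any library. The summed level of 7 T and NK cell markers was 11.9 to 19.2 CPM in DKO and 14.7 to 30.0 CPM in WT, that of 5 B cell markers 12.4 to 42.7 CPM in DKO and 25 to 65.0 CPM in WT, that of 6 macrophage markers 58.3 to 118 CPM in DKO and 105 to 185 CPM in WT, and that of 5 red cell markers 214 to 425 CPM in DKO and 116 to 897 CPM in WT. In whole kidney, fewer cells of a type and less RNA per cell cannot be told apart.

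Of the 194 RNAs, 10 averaged at least 100 CPM, 91 were between 10 and 100 CPM, and 93 were between 5 and 10 CPM. By symbol, 81 were cDNA clones (ending in Rik), 64 were predicted genes (beginning with Gm), 14 were named as transcribed opposite another gene (ending in os), 8 were snoRNA hosts, 2 were the nuclear-retained RNAs, 2 were other host genes, 5 had other clone names and 18 had names of their own. All 194 passed the filter on low counts, and in the library where each was lowest the median was 134 counts. The coefficient of variation over the 7 libraries had a median of 29.5% and ran from 6.19% for 1300002E11Rik to 196% for Erdr1y. Per kilobase of exon the highest level was 161 CPM for Adap2os, an RNA opposite Adap2, followed by 142 CPM for Gm28875, 90.5 CPM for BC024386 and 82.9 CPM for Malat1. The length used was that of all annotated exons of a gene merged, not that of a single transcript. The summed level of the members was 4980, 5879, 6174 and 5733 CPM in DKO 1 to 4, against 5346, 5104 and 5806 CPM in WT 1, 2 and 4, and the groups overlapped.

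No member passed edgeR's quasi-likelihood test of DKO against WT at a Benjamini-Hochberg adjusted p under 0.05, and nor did any other of the 15394 genes tested (0%). The smallest adjusted p among the members was 0.163. At an unadjusted p under 0.05 edgeR gave 69 members, or 35.6%, against 21.1% of all genes tested. Of these, 28 were higher in DKO, against 9.86% of all genes, and 41 were lower in DKO, against 11.3% of all genes. In all, 85 members had a positive log2 fold change (DKO over WT) and 109 a negative one, with a median of -0.062, beside a median of 0.036 over all genes tested, of which 53.2% were positive.

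DESeq2, run on the same counts, called 19 of the 138 members to which it gave an adjusted p, against 7.36% of all genes with one. Of the 19, 8 were higher in DKO (2.43% of all genes) and 11 were lower (4.93% of all genes). The 8 were Gm28875, B930095G15Rik, 4732496C06Rik, A530041M06Rik, Gm9752, Gm43696, Kcnq1ot1 and Tbx3os1. The 11 were Snhg18, Airn, Gt(ROSA)26Sor, Hoxb5os, Gm3716, D630024D03Rik, 1500026H17Rik, Gm17750, 1810034E14Rik, 4930461G14Rik and Gm27216. Without a low-count filter edgeR called 2 members, Gm28875 and Gm9752, against 0.241% of all genes, and limma-voom called 0. The DKO and WT libraries did not overlap in CPM for 40 members, against 17.4% of all genes: 11 had every DKO library above every WT library, against 8.34% of all genes, and 29 had every DKO library below, against 9.04% of all genes.

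Malat1, the speckle RNA (chr19:5795690-5802672, minus strand, 1 exon of 6983 bases), and Neat1, the paraspeckle RNA (chr19:5824708-5845478, minus strand, 20771 bases in 1 merged exon), lie beside each other and were among the most abundant members. Malat1 had 449, 662, 638 and 654 CPM in DKO 1 to 4, against 714, 426 and 508 CPM in WT 1, 2 and 4. DKO 1 stood below the other 3 DKO libraries, and the highest value of all was WT 1, so the groups overlapped. Malat1 averaged 601 ± 101 CPM in DKO (SD, n = 4) and 549 ± 149 CPM in WT (SD, n = 3), and the log2 fold change was 0.13 (SE 0.22, edgeR adjusted p = 0.756).

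Neat1 had 491, 490.5, 801 and 566 CPM in DKO 1 to 4, against 660.5, 365 and 713 CPM in WT 1, 2 and 4. The highest library was DKO 3 and the lowest was WT 2, and the groups overlapped. Neat1 averaged 587 ± 147 CPM in DKO (SD, n = 4) and 579.5 ± 187 CPM in WT (SD, n = 3), with a log2 fold change of 0.019 (SE 0.26, edgeR adjusted p = 0.975). The exact two-sided permutation test over all 35 assignments of the genotypes gave p = 0.571 for Malat1 and p = 1 for Neat1, where the smallest p this test can give is 0.0286. Neither RNA differed between genotypes by more than the spread between animals, and a difference within these standard errors was not detectable. Per kilobase of exon, Malat1 averaged 82.9 CPM and Neat1 28.1 CPM over the 7 libraries. The divisor for Neat1 was its 20771 merged bases, whichever form of the RNA the reads came from. The ratio of Malat1 to Neat1 in CPM was 0.916, 1.35, 0.796 and 1.16 in DKO 1 to 4, against 1.08, 1.17 and 0.713 in WT 1, 2 and 4.

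The 8 snoRNA hosts had a median log2 fold change of -0.32, with 2 positive and 6 negative. Of the 8, 1 host, Snhg18, had an unadjusted edgeR p under 0.05, or 12.5%, against 21.1% of all genes tested. Snhg11, which the deposited table lists as protein-coding, is outside the rule and outside every value given for the hosts. It had 933, 1689, 911 and 702 CPM in DKO 1 to 4, against 983, 803 and 382 CPM in WT 1, 2 and 4 (log2 fold change 0.55, SE 0.37, edgeR adjusted p = 0.397), so it was far above the 8 hosts and its groups overlapped. Of the 8, the most abundant was Snhg18 (chr15:32240565-32244662, minus strand), the host of Snord123. It had 64.3, 44.9, 44.8 and 61.6 CPM in DKO 1 to 4, against 74.5, 80.1 and 121 CPM in WT 1, 2 and 4. Every DKO library was below every WT library, and WT 4 was the highest. Snhg18 averaged 53.9 ± 10.5 CPM in DKO (SD, n = 4) and 91.7 ± 25.1 CPM in WT (SD, n = 3). Its log2 fold change of -0.77 (SE 0.21) had an adjusted p of 0.163 with edgeR and of 0.0294 with DESeq2.

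The other 7 hosts overlapped between the groups, so 12.5% of the hosts did not overlap, against 17.4% of all genes tested. Gas5 (chr1:161034422-161038539, plus strand), whose spliced RNA accumulates in growth-arrested cells, had 24.9, 20.9, 20.4 and 31.5 CPM in DKO 1 to 4, against 18.5, 24.6 and 28.5 CPM in WT 1, 2 and 4. Its log2 fold change was 0.036 (SE 0.20, edgeR adjusted p = 0.934), so both groups covered nearly the same range. Snhg20 had 15, 12.8, 17.3 and 15.3 CPM in DKO, against 15.1, 11.5 and 33.6 CPM in WT, a log2 fold change of -0.41 (SE 0.32, edgeR adjusted p = 0.463). Snhg1, whose locus holds 8 annotated snoRNAs, had 6.56, 6.09, 6.77 and 4.69 CPM in DKO, against 5.35, 5.35 and 14.1 CPM in WT, a log2 fold change of -0.46 (SE 0.33, edgeR adjusted p = 0.439). In both, WT 4 was far above the 6 other libraries, which lay close together.

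Snhg6 had 7.66, 6.04, 3.18 and 6.41 CPM in DKO 1 to 4, against 6.02, 6.67 and 8.99 CPM in WT 1, 2 and 4 (log2 fold change -0.31). Snhg8 had 8.36, 2.57, 4.82 and 5.92 CPM in DKO, against 4.15, 5.82 and 10.5 CPM in WT (log2 fold change -0.33). Snhg16 had 6.87, 3.10, 5.89 and 3.59 CPM in DKO, against 3.68, 4.98 and 7.33 CPM in WT (log2 fold change -0.13). In these 3 hosts a DKO library was the lowest and WT 4 the highest. Snhg17 had 5.94, 5.41, 6.36 and 5.02 CPM in DKO, against 6.49, 4.34 and 5.30 CPM in WT (log2 fold change 0.079), and it had the smallest coefficient of variation of the 8 hosts. The edgeR adjusted p of these 4 hosts was between 0.536 and 0.850.

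Summed over the 8 hosts, the level was 139.6, 102, 109 and 134 CPM in DKO 1 to 4, against 134, 143 and 229 CPM in WT 1, 2 and 4, so WT 4 alone held the high end. Without WT 4 the median log2 fold change of the hosts was 0.14 in place of -0.32. The summed level of Malat1 and Neat1 was 6.74, 11.3, 13.1 and 9.10 times that of the 8 hosts, Snhg11 left out, in DKO 1 to 4, against 10.3, 5.52 and 5.34 times in WT 1, 2 and 4. The ratio overlapped between the groups, with DKO 1 among the lower values and WT 1 among the higher ones. Per kilobase of exon, Snhg18 averaged 47.2 CPM and the other hosts ran from 0.787 CPM for Snhg17 to 7.06 CPM for Snhg8, so Snhg18 stood between Malat1 and Neat1. This order depends on the annotation, since merged exons can cover what is intron in a shorter transcript. Snhg1 had 1 merged exon of 2969 bases, while Snhg18 had 2 merged exons with 1486 bases in all.

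**Figure D1:**
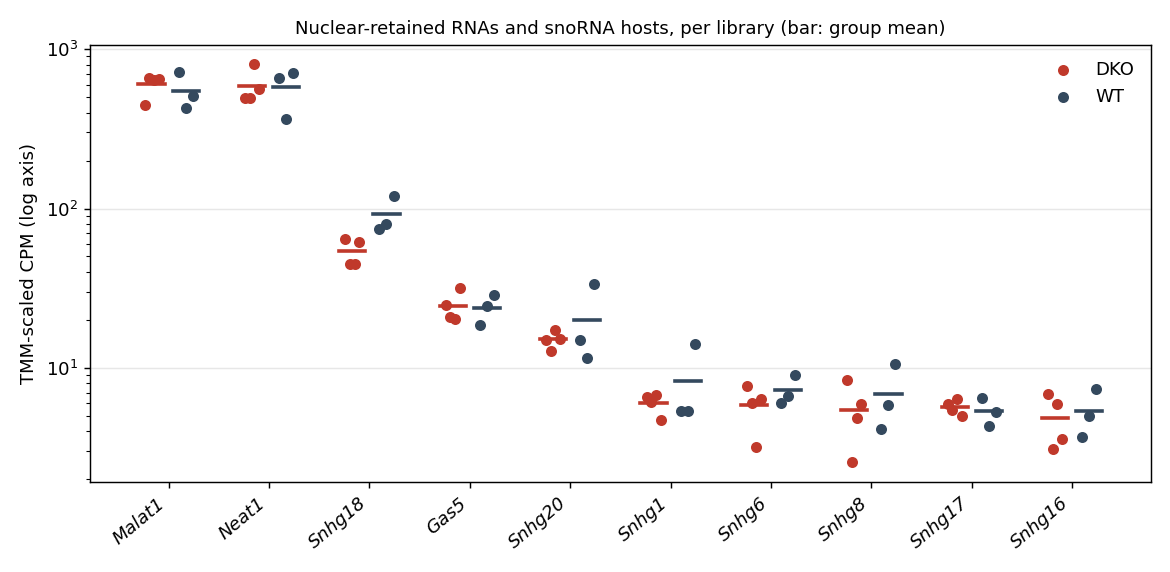
Level in CPM of Malat1, Neat1 and the 8 snoRNA hosts in each library on a log axis, with DKO libraries left of WT libraries for each RNA and a bar at the mean of each group. Snhg18 is the host whose DKO libraries, between 44.8 and 64.3 CPM, all lie below its WT libraries, between 74.5 and 121 CPM.

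The small RNAs inside these hosts were hardly counted. All 10 snoRNA genes inside Gas5 and all 8 inside Snhg1 had 0 counts in every library, Snord123 inside Snhg18 had at most 3 counts, and Snord87 inside Snhg6 had 1 to 5 counts. By position, 3 further members without a Snhg name hold annotated snoRNAs, AA465934, 1110038B12Rik and 2410006H16Rik. AA465934, which holds Snord7, had 15.6, 26.7, 40.9 and 29.8 CPM in DKO, against 30.5, 17.5 and 87.7 CPM in WT (log2 fold change -0.68, edgeR adjusted p = 0.496). Snord7 itself had 238, 115, 191 and 155 counts in DKO, against 117, 179 and 71 counts in WT. The library with the highest level of the host, WT 4, thus had the fewest counts of the snoRNA. Members holding microRNA genes were Dleu2, Mir22hg, Mir99ahg, Snhg20 and E130102H24Rik, and their microRNA genes had 0 counts in every library. How the library preparation treats RNAs of this length was not tested.

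Among the imprinted RNAs, Airn, which silences Igf2r on the paternal allele in mouse (chr17:12741311-12860136, plus strand), had 20.9, 22.8, 11.3 and 22.1 CPM in DKO 1 to 4, against 31.7, 31.4 and 60.9 CPM in WT 1, 2 and 4. Every DKO library was below every WT library, DKO 3 was the lowest and WT 4 the highest. Airn averaged 19.3 ± 5.39 CPM in DKO (SD, n = 4) and 41.3 ± 17 CPM in WT (SD, n = 3), with a log2 fold change of -1.10 (SE 0.29) and an adjusted p of 0.163 with edgeR and 0.0221 with DESeq2. Leaving out each library in turn moved this log2 fold change between -1.28 and -0.71. Igf2r, the receptor it silences, averaged 197 ± 66.3 CPM in DKO (SD, n = 4) and 202 ± 62.8 CPM in WT (SD, n = 3), a log2 fold change of -0.030 (SE 0.29, edgeR adjusted p = 0.962).

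Kcnq1ot1, which is transcribed against Kcnq1 from within it and silences genes of that cluster (chr7:143203458-143296549, minus strand), had 10.8, 32.6, 21.6 and 28.7 CPM in DKO 1 to 4, against 10.1, 10.6 and 14.5 CPM in WT 1, 2 and 4. DKO 2, DKO 3 and DKO 4 were above every WT library, while DKO 1 lay within the WT range. Its log2 fold change was 0.99 (SE 0.33), with an adjusted p of 0.169 with edgeR and 0.0491 with DESeq2, and 0.31 once a trend over exon length and GC content was removed from each library. Kcnq1 averaged 11.5 ± 2.38 CPM in DKO (SD, n = 4) and 9.82 ± 1.07 CPM in WT (SD, n = 3), a log2 fold change of 0.24 (SE 0.20, edgeR adjusted p = 0.514). Peg13, an imprinted RNA inside Trappc9, had 6.82, 6.78, 10.8 and 9.10 CPM in DKO, against 8.87, 6.67 and 6.86 CPM in WT, with a log2 fold change of 0.17 (SE 0.22, edgeR adjusted p = 0.683). The 3 imprinted RNAs thus had no direction in common.

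Firre, an X-linked nuclear RNA that helps to organise chromosome contacts, had 29.0, 45.8, 38.6 and 31.9 CPM in DKO 1 to 4, against 28.7, 26.8 and 26 CPM in WT 1, 2 and 4. Every DKO library was above every WT library, DKO 1 by a small margin (log2 fold change 0.42, SE 0.18, edgeR adjusted p = 0.218). With the trend over length and GC content removed it was 0.18. Gt(ROSA)26Sor, the ubiquitously transcribed locus used for transgene insertion, had 18.4, 17, 13.9 and 19 CPM in DKO, against 21.1, 21.5 and 57.4 CPM in WT. Its DKO libraries were all below the WT libraries, but WT 1 and WT 2 by little, and WT 4 set the size of the difference (log2 fold change -0.97, SE 0.33, adjusted p = 0.173 with edgeR and 0.0493 with DESeq2). Without WT 4 it was -0.32.

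Dleu2, the host of Mir15a and Mir16-1, had 54.3, 81.2, 64.8 and 70.4 CPM in DKO 1 to 4, against 79.2, 54.7 and 63.3 CPM in WT 1, 2 and 4 (log2 fold change 0.042). Oip5os1, known as Cyrano, which directs the decay of the microRNA miR-7 in mouse, had 39.1, 36.0, 37.5 and 30.4 CPM in DKO, against 34.0, 33.5 and 47.2 CPM in WT (log2 fold change -0.098). Both overlapped between the groups. Pantr1 had 35.9, 36.0, 35 and 32.8 CPM in DKO, against 39.3, 39.5 and 46.0 CPM in WT (log2 fold change -0.26, SE 0.14, edgeR adjusted p = 0.300). Its neighbour Pantr2 had 14.2, 20.2, 26.1 and 16.4 CPM in DKO, against 11.6, 16.7 and 10.2 CPM in WT (log2 fold change 0.58, SE 0.24, edgeR adjusted p = 0.212). Pantr1 was below the WT range in every DKO library, while Pantr2 had the opposite sign and overlapped.

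Some members lie beside or against a regulator whose own level could be set beside theirs. Chaserr, which limits the expression of its neighbour Chd2 in mouse, had 17, 44.5, 56.7 and 63.6 CPM in DKO 1 to 4, against 42.2, 27.4 and 52.5 CPM in WT 1, 2 and 4 (log2 fold change 0.16, SE 0.41). Chd2, a chromatin remodeller, had 8.23 to 9.59 CPM in DKO and 5.82 to 7.21 CPM in WT (log2 fold change 0.48, SE 0.17, edgeR adjusted p = 0.175). Chaserr overlapped between the groups and Chd2 did not. The annotation overlaps 30.5% of the exon length of Chaserr with Chd2, on the same strand, so that reads there may belong to either.

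Tbx3os1 had 14.2, 23.0, 22.6 and 6.69 CPM in DKO 1 to 4, against 6.28, 8.36 and 5.06 CPM in WT 1, 2 and 4. DKO 4 lay within the WT range and the other 3 DKO libraries above it (log2 fold change 1.33, SE 0.40, adjusted p = 0.163 with edgeR and 0.0248 with DESeq2). Tbx3, the transcription factor gene beside it, averaged 24.7 ± 6.57 CPM in DKO (SD, n = 4) and 14.9 ± 3.73 CPM in WT (SD, n = 3), with a log2 fold change of the same sign, 0.73 (SE 0.25, edgeR adjusted p = 0.169).

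The remaining RNAs with names of their own had low levels. Erdr1y, on chromosome Y, had 7.97, 0.0525, 60.5 and 0.163 CPM in DKO 1 to 4, against 2.13, 0 and 7.71 CPM in WT 1, 2 and 4, a span far wider within than between genotypes (log2 fold change 2.37, SE 2.21). It has a near-identical copy on chromosome X, so its counts are uncertain. Trmt61b, a gene of a tRNA methyltransferase that the table lists as lncRNA, had 5.02, 4.36, 4.61 and 5.96 CPM in DKO, against 8.04, 6.35 and 10 CPM in WT, with no overlap (log2 fold change -0.71, SE 0.21, edgeR adjusted p = 0.163). Bvht, which acts in commitment to the heart lineage in mouse, had 7.13, 4.99, 7.18 and 5.55 CPM in DKO, against 8.41, 6.09 and 14.1 CPM in WT (log2 fold change -0.62). Without WT 4 it was -0.22, and with the trend over length and GC content removed it was -0.28.

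The Hox cluster RNAs Hoxd3os1 and Halr1 overlapped between the groups. Hoxd3os1 had 6.21, 3.94, 5.28 and 4.90 CPM in DKO 1 to 4, against 5.76, 5.03 and 7.95 CPM in WT 1, 2 and 4 (log2 fold change -0.30). Halr1, beside the Hoxa genes, had 6.43, 4.89, 4.15 and 4.69 CPM in DKO, against 6.44, 5.13 and 5.06 CPM in WT (log2 fold change -0.14). Sgms1os1 had 5.19, 4.46, 3.64 and 4.33 CPM in DKO, against 4.52, 5.66 and 7.76 CPM in WT (log2 fold change -0.44). Without WT 4, Hoxd3os1 was at -0.088 and Sgms1os1 at -0.21. As a group, the 18 RNAs with names of their own had a median log2 fold change of -0.12, with 4 higher and 5 lower in DKO at an unadjusted edgeR p under 0.05, against 9.86% higher and 11.3% lower over all genes.

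**Figure D2:**
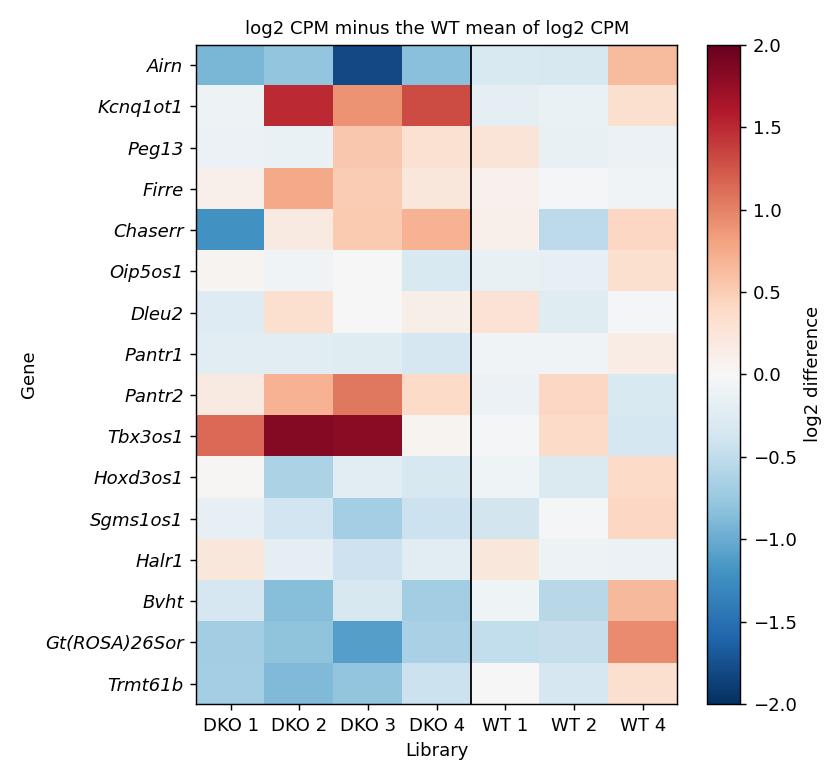
Log2 CPM of RNAs with names of their own, as labelled (rows), minus the WT mean of log2 CPM of that RNA, in the 4 DKO libraries and then the 3 WT libraries (columns). The colours of WT 4 depart from those of WT 1 and WT 2 for many rows, among them Airn with 60.9 CPM and Gt(ROSA)26Sor with 57.4 CPM.

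The 5 members with the smallest p among those higher in DKO were uncharacterised RNAs. Gm9752 (chr13:119473804-119476761, minus strand) had 47.8, 40.9, 77.8 and 44.9 CPM in DKO 1 to 4, against 29.2, 21.8 and 17.5 CPM in WT 1, 2 and 4. Gm28875 (chr12:104925501-104926689, minus strand) had 146, 302, 208 and 211 CPM in DKO, against 127, 103 and 86.4 CPM in WT. In both, every DKO library was above every WT library, with log2 fold changes of 1.21 (SE 0.26) and 1.04 (SE 0.24). A530041M06Rik (chr3:104499320-104501607, minus strand) had 29.5, 60.8, 53.7 and 82.5 CPM in DKO, against 22.3, 24.7 and 25.1 CPM in WT (log2 fold change 1.24, SE 0.29). Gm43696 (chr3:104470660-104476730, minus strand) had 17.9, 54.3, 36.3 and 61.0 CPM in DKO, against 17.2, 16.1 and 14.8 CPM in WT (log2 fold change 1.40, SE 0.36). These too did not overlap between the groups, although DKO 1 was close to the WT libraries in both. 4732496C06Rik had 59.4, 153, 104 and 99.9 CPM in DKO, against 50.2, 64.2 and 33.9 CPM in WT, and overlapped through DKO 1 (log2 fold change 1.08, SE 0.31). Each of the 5 had an edgeR adjusted p of 0.163, and DESeq2 gave adjusted p between 0.00669 and 0.0283.

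A530041M06Rik and Gm43696 both lie within Lrig2, so the reads of its unspliced RNA and those of the 2 members cannot be told apart. Lrig2, a membrane protein gene, averaged 83.3 ± 34.0 CPM in DKO (SD, n = 4) and 61.9 ± 6.43 CPM in WT (SD, n = 3), with a log2 fold change of 0.43 (SE 0.28, edgeR adjusted p = 0.382). Gm9752 lies within 4833420G17Rik and opposite to it, with 19.7% of its exon length overlapped. That gene averaged 105 ± 26.5 CPM in DKO (SD, n = 4) and 62.3 ± 6.49 CPM in WT (SD, n = 3), a log2 fold change of 0.75 (SE 0.20, edgeR adjusted p = 0.163). Since the libraries do not mark the strand, the reads of such pairs cannot be told apart where they overlap.

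Among members lower in DKO, the 5 with the smallest p were Gm3716, Hoxb5os, Gm4208, Airn and Snhg18. Gm3716 had 6.47, 6.15, 9.53 and 8.37 CPM in DKO 1 to 4, against 12.1, 11.1 and 19.1 CPM in WT 1, 2 and 4 (log2 fold change -0.89, SE 0.23). Hoxb5os had 9.11, 7.14, 6.10 and 8.94 CPM in DKO, against 13.6, 10.3 and 25 CPM in WT (log2 fold change -1.06, SE 0.28). Gm4208 had 4.80, 2.68, 1.38 and 4.41 CPM in DKO, against 7.01, 8.20 and 20.5 CPM in WT (log2 fold change -1.83, SE 0.47). In these 3, every DKO library was below every WT library and WT 4 was the highest, and the edgeR adjusted p was 0.163. Without WT 4 the log2 fold changes were -0.62 for Hoxb5os and -1.19 for Gm4208. Hoxb5, opposite to Hoxb5os, had the other sign, with 4.49 ± 0.616 CPM in DKO (SD, n = 4) and 3.26 ± 0.508 CPM in WT (SD, n = 3) and a log2 fold change of 0.46 (SE 0.23, edgeR adjusted p = 0.266).

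**Figure D3:**
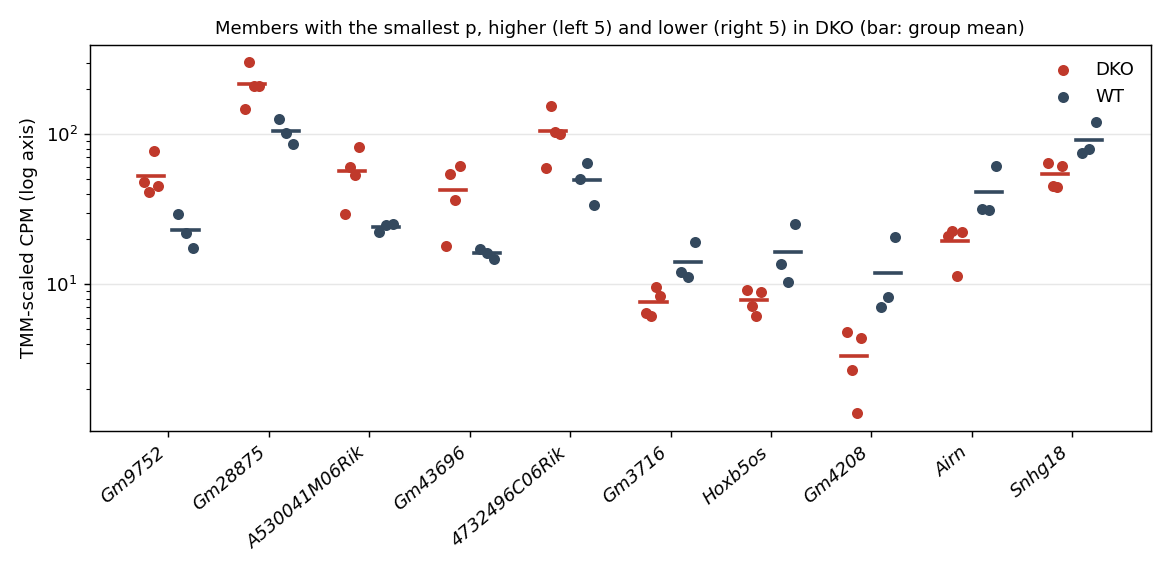
Level in CPM, on a log axis, of the 5 members higher and the 5 members lower in DKO with the smallest p, with DKO libraries left of WT libraries and a bar at the group mean. Of the 10, 4732496C06Rik is the one whose groups overlap, with 59.4 CPM in DKO 1 and 64.2 CPM in WT 2.

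Members inside another gene and members outside had medians of opposite sign, a difference given here with no test. The 31 members inside a protein-coding gene had a median log2 fold change of 0.50, with 24 positive, 10 higher and 5 lower at an unadjusted edgeR p under 0.05 (9.86% and 11.3% of all genes), beside a median of -0.13 and 61 positive for the 163 others. DESeq2 gave an adjusted p to 25 of the 31 and called 5 of them higher and 1 lower, against 2.43% and 4.93% of all genes with one. As medians over these 31 members, the log2 CPM relative to the WT mean was -0.097 in DKO 1, 0.62 in DKO 2, 0.54 in DKO 3 and 0.51 in DKO 4, against -0.088, 0.011 and 0.022 in WT 1, 2 and 4. The higher level was thus in 3 of the 4 DKO libraries, and DKO 1 lay with the WT libraries. Once the trend over length and GC content was taken out their median was 0.62, and leaving out each library in turn gave medians between 0.37 and 0.73. Among the 31, log2 fold changes ran from -1.20 for 9130230N09Rik to 1.40 for Gm43696, with Peg13 at 0.17 and 1810034E14Rik, inside Cdc14b, at -0.68. How much of the signal of these 31 members is unspliced RNA of the gene around them was not tested.

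Exon length also went with direction, in members as in all genes. The 49 members with at most 1300 bases of exons had a median log2 fold change of -0.40, with 38 negative, and all 1543 genes of that length had a median of -0.40. The 46 members with at least 4000 bases had a median of 0.11, beside 0.17 for all 7700 genes of that length. After removal of the trend over length and GC content, the medians of short and long members were -0.11 and -0.040, and that of the snoRNA hosts was -0.11. Members with exons overlapping another gene numbered 91 and had a median of 0.0090, beside -0.22 for the 103 without an overlap.

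**Figure D4:**
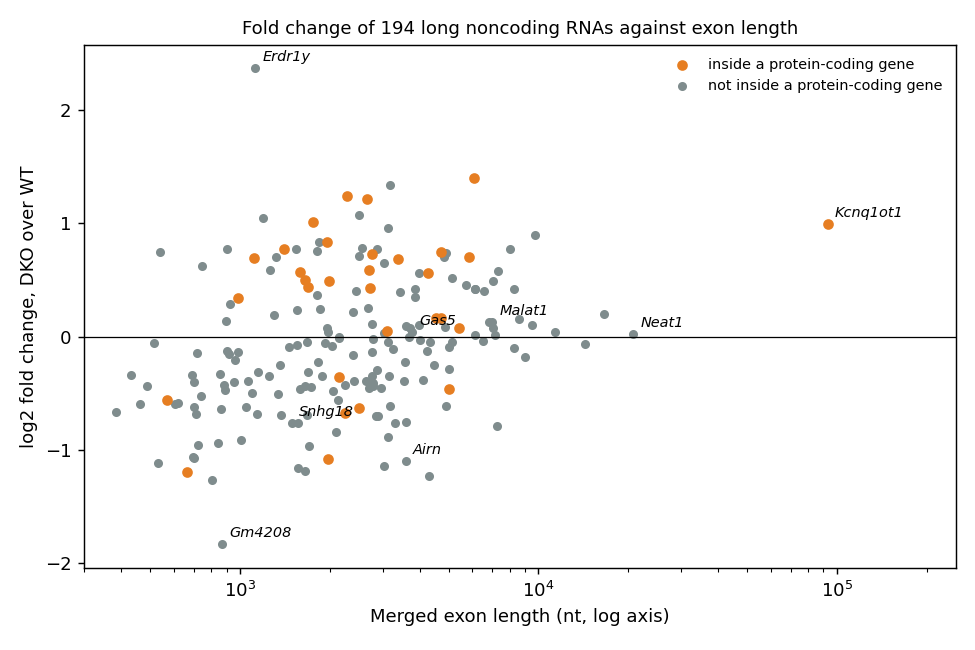
Log2 fold change (DKO over WT) of each of the 194 members against the length of its merged exons in bases on a log axis, with members inside a protein-coding gene in orange, the others in grey and a few labelled by symbol. Most members of at most 1300 bases lie below 0, with a median of -0.40, and most of those inside a protein-coding gene lie above 0, with a median of 0.50.

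WT 4 was the highest of the 7 libraries in 80 of the 194 members, or 41.2%, and in 26.4% of all genes tested. Among the 41 members lower in DKO at an unadjusted edgeR p under 0.05, WT 4 was the highest library in 37, and the lowest was DKO 3 in 21 and DKO 2 in 17. Among the 28 members higher in DKO, the highest was DKO 2 in 16 and DKO 3 in 9, and the lowest was WT 4 in 17. Both sets were picked by this contrast, so which group holds the highest and the lowest library is largely set by the choice. Such counts were not made for all genes with that p. Without WT 4, 18 members were higher and 16 lower at an unadjusted edgeR p under 0.05, beside 1582 of 15697 genes in either direction. The median over all members was then 0.0032. WT 4 also had the highest summed level of the T and NK cell, macrophage and red cell markers, at 30.0, 185 and 897 CPM. WT 1 came next in these lists, at 24.9, 159 and 623 CPM, and had the highest level of the B cell markers, at 65.0 CPM against 51.7 CPM in WT 4. WT 1 was the highest library in 7 members, or 3.61%, and in 9.91% of all genes tested. The part of these cells in the lower members was not tested.

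**Figure D5:**
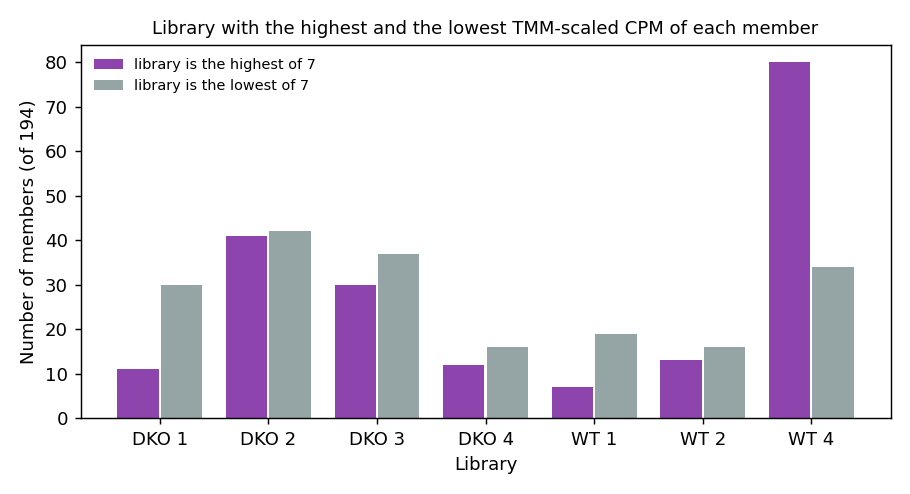
Number of the 194 members for which each library was the highest and the lowest of the 7, with the DKO libraries left of the WT libraries. WT 4 was the highest for 80 members, followed by DKO 2 for 41 and DKO 3 for 30.

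Over all genes tested, 53.2% were positive, 9.86% higher and 11.3% lower at an unadjusted p under 0.05. Proteins that work with these RNAs were counted from lists of textbook roles, and edgeR called none of them at an adjusted p under 0.05. Of the genes with a DESeq2 adjusted p, DESeq2 called 1 of 15 paraspeckle, 1 of 16 nuclear speckle and 2 of 11 snoRNP genes. It also called 1 of 14 decay and 3 of 16 TOP genes, against 7.36% of all genes with an adjusted p. Of 20 paraspeckle proteins, 16 had a positive log2 fold change (median 0.26) and 3 were higher in DKO at an unadjusted p under 0.05. Among them were Hnrnpr (0.98, SE 0.30), an RNA-binding protein, and Zc3h6 (0.85, SE 0.27), a zinc finger protein. Of 17 nuclear speckle proteins, 12 were positive (median 0.22), and Rbm25 (0.64, SE 0.17), Srrm1 (0.61, SE 0.21) and Srsf5 (0.57, SE 0.20), all splicing factors, were higher at that p. With the trend over length and GC content removed, the medians were 0.095 for the paraspeckle list and 0.013 for the speckle list. Malat1 and Neat1 themselves had log2 fold changes of 0.13 and 0.019.

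Of 13 proteins of snoRNA-protein particles, 7 were positive (median 0.054) and 2, Nhp2 (-0.58, SE 0.18) and Nop10 (-0.80, SE 0.27), core proteins of the particles that guide pseudouridylation, were lower in DKO at an unadjusted p under 0.05. Of 16 factors of nonsense-mediated decay, the pathway that degrades many host transcripts, 11 were positive (median 0.18) and 5 were higher, among them Nbas (0.64, SE 0.17), Smg1 (0.75, SE 0.23), Casc3 (1.01, SE 0.37) and Upf2 (0.43, SE 0.17). With that trend removed, the medians were -0.013 for the snoRNA particle list, with 3 lower, and 0.049 for the decay list, with 2 higher. Of 16 other genes with TOP tracts, 12 were negative (median -0.38), 8 were lower and 1, Pabpc1 (0.40, SE 0.17), was higher, with Rpsa (-0.92, SE 0.26), Tpt1 (-0.85, SE 0.25) and Rack1 (-0.70, SE 0.22) among the lower ones. The TOP list and the hosts thus had medians of the same sign, -0.38 and -0.32, and with the length and GC trend removed these were -0.23 and -0.11. The host median was 0.14 without WT 4, so its sign rested on that library. No difference between these lists was tested.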

How the data were processed

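Libraries were made with an unstranded kit, per the labels' protocols, so reads of overlapping or antisense genes cannot be told apart. The authors deposited raw read counts per gene, and a TMM-scaled CPM table (a normalised signal), used for symbols, biotypes, the choice of members and 1 alternative of the permutation test. Its values differed from CPM computed here by at most 0.648%. Per the submitters' processing notes, STAR 2.5.2a was used, with edgeR, limma and DESeq2, and the builds GRCm38 (mm10) and GRCh38 are named without a role. Read counter, annotation release and strand handling were not given in the sources used here.

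Counts of 48709 Ensembl rows were joined by gene identifier, and 24 rows of transgene or spike-in sequences, holding at most 0.000697% of any library's counts, stayed out. The main test was edgeR 4.0.16 (R 4.3.3): quasi-likelihood, robust fit, TMM scaling, filterByExpr with minimum count 10 and minimum total 15, 2-sided, with Benjamini-Hochberg adjustment over 15394 genes. A call was an adjusted p under 0.05. Standard errors were derived from the F statistic. The alternatives were other scalings, no filter, DESeq2 1.42.0, limma-voom 3.58.1, removal of a length and GC trend, a replicate block and each library left out. The tests were checked on simulated counts. DESeq2 gave an adjusted p to 9125 genes. Positions, merged exon lengths and overlaps came from GENCODE M21 on GRCm38, and start sequences from RefSeq on GRCm38.p6.

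Members and lists were chosen with earlier results of these data known. Given library by library were Malat1, Neat1, the snoRNA hosts, RNAs with names of their own, and the 5 members with the smallest p in each direction. Of each protein list, members with an unadjusted p under 0.05 were named, up to 4. Some items that these rules name are not reported here. Other members named were chosen after their values were seen. Labels number the animals, and nothing else says how they were sampled.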

Additional observations from a re-analysis of the deposited data

Results flagged for a closer look

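Among the members given library by library, 3 had 1 DKO library far from the other 3, with a gap to the nearest library above Dixon's critical share of the group's range for 4 samples. Malat1 was low in DKO 1, at 449 CPM, and the gap was 0.889 of the range. Airn was low in DKO 3, at 11.3 CPM (0.840 of the range). Erdr1y was high in DKO 3, at 60.5 CPM (0.869 of the range). Of the 36 members examined, chance passes this limit in about 1 in 20 groups. Over all 194 members, 10 passed it in the DKO group, and the WT group, with 3 libraries, was not examined.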

How the results depend on the processing

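The number of genes called, 0 with edgeR, was 66 without a low-count filter and 672 with DESeq2, and 0 to 7 when 1 library was left out. That of members called, also 0, was 2 without the filter and 19 with DESeq2, and 0 to 2 when 1 library was left out; the 2, without DKO 1, were A530041M06Rik and Gm43696. Leaving out 1 library gave 1582 (without WT 4) to 3796 genes, 16 to 39 higher members and 16 to 50 lower members at an unadjusted p under 0.05. The number of members whose groups do not overlap, 40 with all libraries, was 41 without DKO 3 and up to 78 without DKO 1. Leaving out a library cannot lower this number, and the shares over all genes were not computed. The median of the members was -0.13 to 0.0032, that of the snoRNA hosts -0.52 to 0.14, that of members inside a protein-coding gene 0.37 to 0.73 and that of short members -0.56 to -0.22; both sign changes came without WT 4. The member median was 0.033 at a minimum of 10 CPM and -0.22 without members overlapping other genes, and the cause was not tested. The median of short members was -0.11 with the length and GC trend removed, as the trend's construction takes out length. The exact permutation p was 0.333 to 1 for Malat1 and 0.4 to 1 for Neat1.

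Of 504 log2 fold changes of single members under alternatives, 459 kept their sign and side of the threshold, 16 passed the threshold and 29 changed sign. With the trend removed, Neat1 was -0.37, Malat1 -0.0064, Dleu2 -0.068, Snhg17 -0.12, Snhg6 0.024, Snhg8 0.0094 and Halr1 0.15. Neat1 was -0.00024 with DESeq2 and -0.00025 with its size factors. Leaving out 1 library gave -0.083 to 0.18 for Dleu2, -0.36 to 0.17 for Snhg16, -0.24 to 0.19 for Neat1, -0.26 to 3.99 for Erdr1y, -0.071 to 0.43 for Chaserr, -0.13 to 0.18 for Gas5, -0.033 to 0.35 for Malat1, -0.062 to 0.22 for Snhg17, -0.20 to 0.079 for Oip5os1, -0.71 to 0.18 for Snhg20, -0.71 to 0.17 for Snhg1 and -0.62 to 0.12 for Snhg8.

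The labels do not say whether the replicate numbers pair the animals. Deviations of same-numbered libraries correlated at -0.133, 0.164 and 0.135, and those with unlike numbers at -0.229 to 0.162. With so few libraries these values cannot decide whether the animals were paired. With the replicate block 0 genes were called. At an unadjusted p under 0.05, 22 of 194 members were higher and 37 lower, beside 2346 of 15394 genes in either direction. In this fit the member median was -0.12, Neat1 was -0.11, Chaserr -0.093 and Erdr1y -0.83. With 4 and 3 animals, 1 library decides several values above, and 134 counts in the lowest library of the median member limit its precision.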

Other observations

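AW112010, an RNA induced in immune cells and named here after its values were seen, had 5.02, 4.94, 3.43 and 3.96 CPM in DKO 1 to 4, against 7.68, 5.45 and 18.1 CPM in WT 1, 2 and 4. Every DKO library was below every WT library, with a log2 fold change of -1.27 (SE 0.36, edgeR adjusted p = 0.163). The T and NK cell markers, of which 6 of 7 were tested, had a median log2 fold change of -1.19. Of the 6, 4 were lower in DKO at an unadjusted edgeR p under 0.05, against 11.3% of all genes, and Trac had the other sign (0.16). The B cell markers had a median of -0.74, with 1 of 4 tested lower at that p. The macrophage markers had a median of -0.36, with 2 of 6 lower. WT 4 was the highest library for AW112010 and for the summed T and NK cell markers. The part of immune cells in the level of AW112010 was not tested.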
